A study of Mus musculus with 34 samples.

Results

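The genes described here encode enzymes and one regulator that make or remove reactive molecules in the β-cell. They are Nos2, Ptgs2, Sod2, Sod1, Cat, Gpx1, Hmox1 and Txnip, 8 of the 21887 protein-coding genes of the mouse annotation. Every peak of 10 deposited peak lists was assigned to the nearest protein-coding gene body within 50 kb, and the peaks whose nearest gene was one of the 8 were kept. This left 68 of 174035 peaks. Merged where they overlapped by at least 1 bp, the 68 peaks formed 33 sites, of which 22 were listed in 2 or more lists.

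The peaks come from ChIP-seq, in which an antibody pulls down a protein with the DNA it sits on and that DNA is sequenced. The cells were Beta-TC6, an established line of mouse β-cells that secretes insulin. The p65 subunit of NF-κB and the β-cell homeodomain factor PDX1 were mapped in wild-type (WT) and Bmal1-/- cells, each as control or with the cytokine IL-1β, and the corepressor scaffold SIN3A in wild-type cells given control siRNA or Pdx1 siRNA. All cells, controls included, had been synchronised with 10 µM forskolin for 1 h. The labels give no dose or time for IL-1β and do not say whether the knockout is 1 clone. The 8 p65 and PDX1 groups had 3 samples each and the 2 SIN3A groups 2 samples each, but the files hold 1 list per group. No value per replicate was therefore available, no difference between conditions could be tested, and values of different lists are set side by side as description. Peak lists do not show whether Bmal1 was lost or Pdx1 depleted. For PDX1 with IL-1β, in both genotypes, the sample titles name PDX1 while the antibody field names p65, and the titles were followed.

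As background, IL-1β activates NF-κB, and in β-cells the inducible nitric oxide synthase NOS2 is a known product of that pathway. Nitric oxide inhibits mitochondrial respiration and insulin secretion. PTGS2, also called cyclooxygenase 2, makes the precursor of prostaglandins. Superoxide dismutases convert superoxide to hydrogen peroxide, SOD2 in mitochondria and SOD1 mainly in the cytosol. Catalase (Cat) and glutathione peroxidase 1 (Gpx1) remove hydrogen peroxide, and both are known for their low level in β-cells. Heme oxygenase 1 (Hmox1) degrades heme and is induced by oxidative stress. TXNIP binds and inhibits thioredoxin, and its gene is strongly induced by glucose in β-cells.

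Peak strength is given as the authors' tag count, the reads (tags) in the peak per 10000000 tags. The range in brackets after a tag count is the exact Poisson 95% interval from the tags behind it, which covers counting error only. The lists rest on 31047447 (SIN3A with control siRNA) to 63902315 tags (PDX1 in the knockout with IL-1β). They differ in size, with 31389 p65 peaks in wild-type and 16162 in knockout cells with IL-1β, 3157 and 173 without it, and 40028 and 8339 PDX1 peaks without IL-1β, 38930 and 8095 with it. Peak width was fixed within a list but differed between lists, at 206 to 231 bp in wild-type cells and in knockout p65 with IL-1β, and at 418 to 479 bp in the other 3 knockout lists, which also moves the tag count. The lowest tag count in a list was between 2.49 and 5.33, so a gene without a peak is one that did not pass the authors' thresholds and not one without binding. PDX1 had a peak at all 8 of 8 β-cell marker genes in both wild-type lists and at 6 and 5 of the 8 in the knockout without and with IL-1β. The lists hold no expression values, so the cell type itself was not checked.

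With IL-1β, p65 had a peak at all 8 genes in wild-type cells, where 45.5% of all protein-coding genes had one. In Bmal1 knockout cells with IL-1β, 7 of the 8 had a p65 peak, against 32.3% of all genes, and Cat was the one without. Without IL-1β, p65 had a peak at Nos2 alone among the 8 in wild-type cells (8.92% of all genes) and at 0 of the 8 in the knockout (0.658% of all genes). The wild-type IL-1β list held 17 p65 peaks at these genes with a median of 29.0 tags, where the median of the whole list was 10.3, and 12 of the 17 were above the middle of that list. The corresponding 11 knockout peaks had a median of 10.4 tags, beside 9.18 for the whole knockout list.

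**Figure D1:**
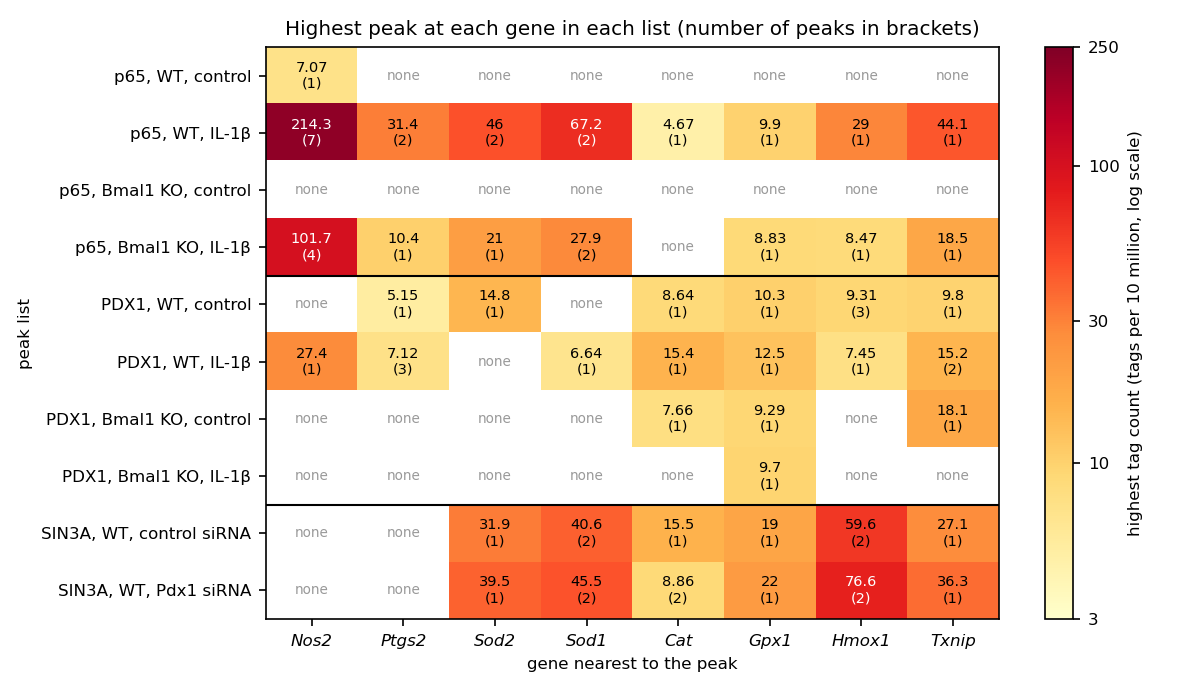
Highest tag count (colour on a log scale, printed in each cell, with the number of peaks in brackets) of the peaks nearest to each of the 8 genes (columns) in each of the 10 lists (rows), 1 list per group. Nos2 has the highest p65 values, 214.3 tags in wild-type cells and 101.7 in the knockout with IL-1β, and SIN3A values are listed at every gene except Nos2 and Ptgs2.

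Nos2 carried the strongest p65 peaks of the group, and they lay far outside the gene. The gene body spans 78920787 to 78960226 on chromosome 11 (mm10). The highest peak, at chr11:78887117-78887323, had 214.3 tags (202.03 to 227.02) in wild-type cells with IL-1β and ranked 105 among 31389 peaks by tag count. The knockout peak at the same site had 101.7 tags (93.55 to 110.34) and ranked 81 of 16162. A second site at chr11:78889191-78889397 had 154.9 tags (144.49 to 165.76) in wild-type cells and 82.8 (75.47 to 90.64) in the knockout. It was the one place among the 8 genes with a p65 peak in the absence of IL-1β, at 7.07 tags (5.0 to 9.70) in wild-type control cells. That control peak was near the middle of its own list, with 54.7% of the control peaks below it. The 2 strong sites were 33464 and 31390 bp from the gene body, and the next protein-coding gene, Lyrm9, was 43206 and 45270 bp away.

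Nearer to Nos2 the p65 peaks were weaker. One at chr11:78920638-78920844 lay across the lower-coordinate end of the gene body, with 21.7 tags (17.90 to 25.99) in wild-type cells and 10.4 (7.93 to 13.44) in the knockout. A peak 5166 bp outside the body in wild-type cells had 12.1 tags there and 5.30 in the knockout. Another 3 sites, at 16528 bp, at 819 bp and inside the body, were listed in wild-type cells and not in the knockout, with 9.53, 12.9 and 5.42 tags. In all, IL-1β-treated cells had 7 p65 peaks at Nos2 in the wild type and 4 in the knockout. In that wild-type list 2.83% of protein-coding genes had 7 or more. By its highest peak Nos2 ranked 89 of 9956 genes with a p65 peak in wild-type cells with IL-1β and 71 of 7069 in the knockout.

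PDX1 was listed at Nos2 with IL-1β in wild-type cells, on the second of the strong p65 sites. That peak, at chr11:78889259-78889485, had 27.4 tags (23.39 to 31.82) and 8.23-fold enrichment over input. The wild-type control list held no PDX1 peak there, and the nearest was 7009 bp away. Of the 4548 PDX1 peaks in that IL-1β list with at least as many tags, 2.70% had no overlapping control peak. The stronger p65 site, with 214.3 tags, had no PDX1 peak in any list, and the nearest PDX1 peak with IL-1β was 1936 bp away. A further p65 peak with IL-1β in wild-type cells, at chr11:78882109-78882315 with 12.5 tags, overlapped PDX1 peaks of 4.99 tags without and 7.61 with IL-1β. It was 38472 bp from Nos2 and 38210 bp from Lyrm9, and so fell to Lyrm9. No SIN3A peak was assigned to Nos2.

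**Figure D2:**
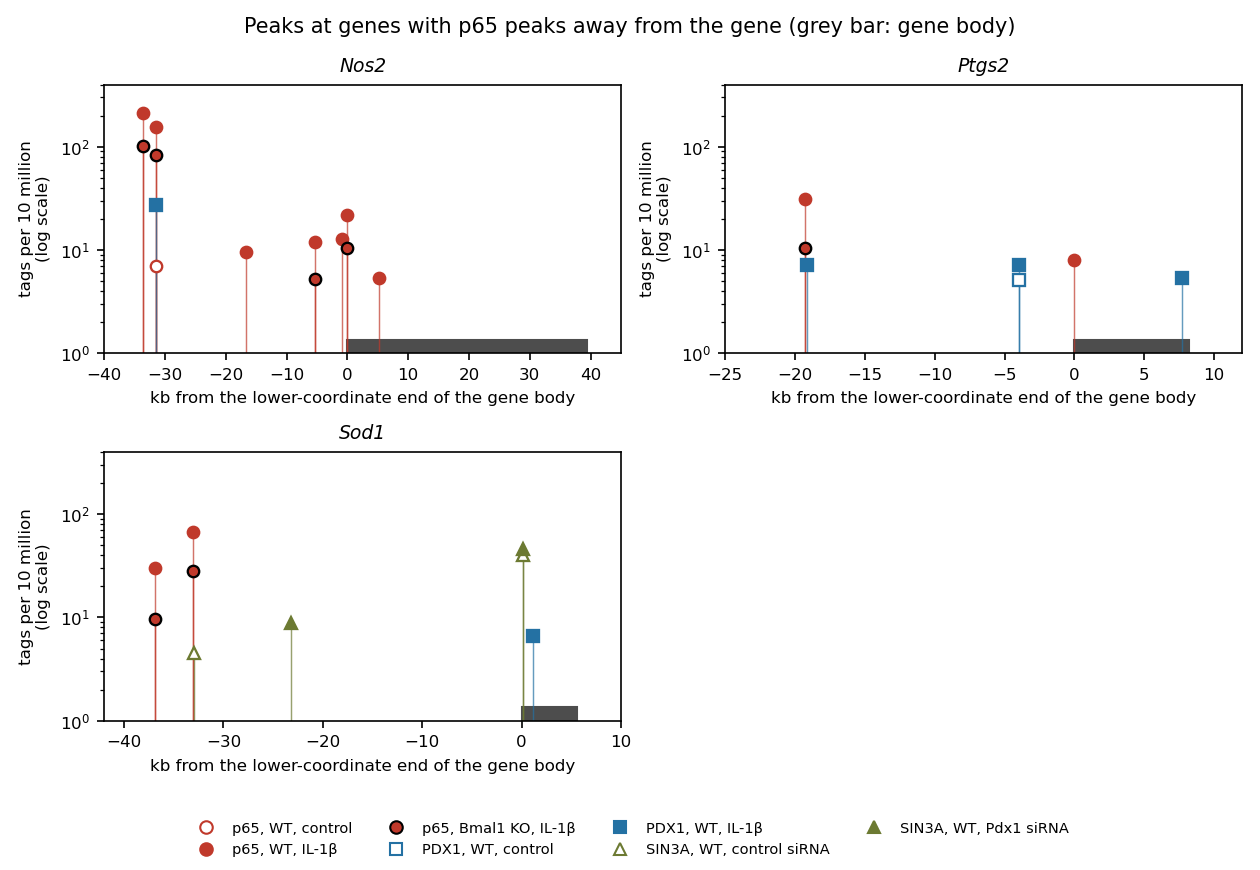
Tag count (log scale) of each peak assigned to Nos2, Ptgs2 and Sod1 against the distance in kb from the lower-coordinate end of the gene body (grey bar), with circles for p65, squares for PDX1, triangles for SIN3A, filled symbols for IL-1β or Pdx1 siRNA and black outlines for the Bmal1 knockout. The p65 symbols with IL-1β at the far left of Nos2, 33464 and 31390 bp from the body in wild-type cells, stand above all others. At Ptgs2 and Sod1 the highest p65 symbols also lie outside the gene.

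At Ptgs2 the p65 peak near the promoter was weaker than one upstream. The gene spans 150100031 to 150108234 on the plus strand of chromosome 1. The upstream site at chr1:150080664-150080870, centred 19264 bp before the start, had 31.4 tags (26.82 to 36.50) in wild-type cells with IL-1β and 10.4 (7.93 to 13.44) in the knockout. PDX1 was listed there with IL-1β in wild-type cells at 7.12 tags (5.18 to 9.56). The promoter peak at chr1:150099869-150100075, centred 59 bp before the start, had 8.03 tags (5.81 to 10.82) in wild-type cells with IL-1β and was not listed in the knockout. Of the wild-type peaks with at least 8.03 tags, 39.9% had no knockout overlap. No other protein-coding gene lay within 50 kb of any of the 4 sites of Ptgs2.

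PDX1 had a weak site nearer the Ptgs2 start in both wild-type lists, centred 3989 bp before it with 5.15 tags without IL-1β and 3963 bp before it with 7.12 tags with IL-1β. With IL-1β it had a further peak of 5.34 tags inside the gene. Neither PDX1 in the knockout nor SIN3A had a peak assigned to Ptgs2. Nos2 and Ptgs2 were thus the 2 genes of the group without a SIN3A peak.

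The promoter windows of the 3 genes with a promoter p65 peak, Ptgs2, Sod2 and Txnip, are printed because the peaks lay on them. RefSeq's table (GRCm38.p6, the assembly of mm10) gives 250 bases before to 50 bases after the start for 6 of the 8 genes, all but Nos2 and Hmox1. Capitals mark matches to the motifs searched, which were the κB consensus of 10 bases, the E-box CACGTG, the homeobox motif TAATTA and the antioxidant response motif TGACNNNGC, on both strands.
Ptgs2 promoter, plus strand, chr1:150099781-150100080: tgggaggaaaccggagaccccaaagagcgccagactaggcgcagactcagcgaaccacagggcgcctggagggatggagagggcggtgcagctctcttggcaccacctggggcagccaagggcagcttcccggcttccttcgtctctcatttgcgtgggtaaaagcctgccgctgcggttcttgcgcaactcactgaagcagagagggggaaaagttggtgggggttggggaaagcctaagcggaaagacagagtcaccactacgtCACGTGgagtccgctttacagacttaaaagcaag
Sod2 promoter, plus strand, chr17:13007589-13007888: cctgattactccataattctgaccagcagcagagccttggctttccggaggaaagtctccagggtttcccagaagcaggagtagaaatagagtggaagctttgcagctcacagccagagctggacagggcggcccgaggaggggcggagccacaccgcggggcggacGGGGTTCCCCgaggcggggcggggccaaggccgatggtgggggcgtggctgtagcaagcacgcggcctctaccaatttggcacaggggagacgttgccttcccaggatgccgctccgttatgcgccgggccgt
Txnip promoter, plus strand, chr3:96557707-96558006: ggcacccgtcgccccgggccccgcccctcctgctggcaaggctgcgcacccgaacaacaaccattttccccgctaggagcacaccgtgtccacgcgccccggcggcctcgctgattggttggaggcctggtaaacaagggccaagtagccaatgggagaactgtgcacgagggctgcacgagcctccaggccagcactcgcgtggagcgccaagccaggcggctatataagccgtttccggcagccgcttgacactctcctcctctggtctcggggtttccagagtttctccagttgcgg

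In these windows the κB consensus matched once, in Sod2. Among all 21263 promoter windows of protein-coding genes 4.81% held such a match. The capitals in the Ptgs2 window are an E-box, the motif bound by CLOCK and BMAL1 and by other factors, which 7.84% of all windows held. The Txnip window held none of these 4 motifs. Among the other members, Gpx1 held the homeobox motif (4.53% of all windows) and Sod1 the antioxidant response motif (13% of all windows). A looser κB pattern, GGGNNNNNCC, was found in all 6 windows and in 57.0% of all windows. Without IL-1β, p65 overlapped the window of 0 of the 6 genes in wild-type cells (0.675% of all genes with a window) and 0 of 6 in the knockout (0.0972% of all). p65 with IL-1β overlapped the promoter window of 3 of the 6 genes in wild-type cells (8.71% of all genes with a window) and of 2 of 6 in the knockout (7.20% of all), Sod2 and Txnip.

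Sod2 had p65 at the start and at a second place inside the gene, and the latter was missing from the knockout list. The gene spans 13007839 to 13018119 on the plus strand of chromosome 17. The promoter peak at chr17:13007655-13007861 had 39.6 tags (34.45 to 45.30) in wild-type cells with IL-1β and 21.0 (17.40 to 25.14) in the knockout. The κB match in the window, GGGGTTCCCC at chr17:13007756-13007765, was centred 2.5 bp from the centre of the wild-type peak and 14.5 bp from that of the knockout peak. The internal peak at chr17:13010123-13010329, centred 2387 bp after the start, had 46.0 tags (40.39 to 52.07) in wild-type cells with IL-1β, more than the promoter peak, and was 12.56-fold over input. The nearest p65 peak in the knockout was 2262 bp away, at the promoter.

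Few wild-type peaks as strong as the internal Sod2 peak were without a knockout counterpart. Of the 2540 wild-type p65 peaks with at least 46.0 tags, 2.05% had no overlapping peak in the knockout list. The other 5 wild-type p65 peaks of the group that were not listed in the knockout had between 4.67 and 12.9 tags, and 25 to 54.1% of peaks at least as strong were likewise not listed. No replicate value is available for the site.

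PDX1 had a peak beside that internal site without IL-1β in wild-type cells, at chr17:13009846-13010052 with 14.8 tags (11.88 to 18.20), 5.65-fold over input. Its edge was 71 bp from the p65 peak and they did not overlap. With IL-1β no PDX1 peak was listed there in wild-type cells, as was so for 5.86% of the control peaks with at least 14.8 tags. The knockout had no PDX1 peak at Sod2 in either condition. SIN3A had a peak just inside the gene, with 31.9 tags (25.92 to 38.82) with control siRNA and 39.5 (33.15 to 46.62) with Pdx1 siRNA. The SIN3A peak with control siRNA, at chr17:13007950-13008174, lay 89 bp beyond the promoter p65 peak.

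At Sod1, the strong p65 sites were far upstream and the strong SIN3A site was at the start. The gene spans 90220762 to 90226333 on the plus strand of chromosome 16. With IL-1β, p65 had peaks centred 33078 bp before the start, at chr16:90187581-90187787 with 67.2 tags (60.48 to 74.56), and 36911 bp before it, at chr16:90183748-90183954 with 29.9 (25.44 to 34.89). In the knockout those sites had 27.9 (23.71 to 32.60) and 9.71 tags (7.31 to 12.64). Scaf4 and Tiam1 also lay within 50 kb of the stronger site, so the gene assignment rests on distance alone. No p65 peak assigned to Sod1 lay within 10 kb of it, although one of 5.60 tags in wild-type cells lay 2160 bp beyond the gene and 251 bp from Scaf4.

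The start of Sod1 carried SIN3A, at chr16:90220759-90220983 with 40.6 tags (33.81 to 48.32) with control siRNA and 45.5 (38.67 to 53.11) with Pdx1 siRNA. With Pdx1 siRNA, 89.9% of the peaks in the list were below it. SIN3A with control siRNA also had a peak of 4.51 tags, the lowest value in its list, on the stronger p65 site. That peak had no overlap in the Pdx1 siRNA list, as was so for 26.6% of control siRNA peaks at least as strong. With Pdx1 siRNA a peak of 8.86 tags was listed 23063 bp from the gene, 9624 bp from the nearest control siRNA peak. Of the Pdx1 siRNA peaks at least as strong, 26.8% had no overlapping control siRNA peak. PDX1 had a single peak at Sod1, inside the gene, with IL-1β in wild-type cells at 6.64 tags (4.76 to 9.01).

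Txnip was the one gene of the group with p65 and SIN3A overlapping at the start. The gene spans 96557957 to 96561857 on the plus strand of chromosome 3. With IL-1β the p65 peak at chr3:96557890-96558096 had 44.1 tags (38.64 to 50.08) in wild-type cells and 18.5 (15.16 to 22.44) in the knockout. It was 7.37-fold and 4.22-fold over input, close to the authors' minimum of 4-fold in the knockout. SIN3A had 27.1 tags (21.58 to 33.50) with control siRNA and 36.3 (30.27 to 43.21) with Pdx1 siRNA. A stronger p65 peak of 65.8 tags in wild-type cells and 35.1 in the knockout lay 14432 bp beyond the Txnip body in wild-type cells but was nearer to Polr3gl.

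PDX1 lay past the end of Txnip, at 2 sites. The nearer, 432 bp from the body in wild-type cells with IL-1β, had 10.2 tags (7.84 to 13.05) there and 18.1 (14.88 to 21.78) in knockout control cells. The wild-type control list had no overlapping peak at that site, and 1.70% of the 3637 knockout control peaks with at least 18.1 tags had none. Widths differ here, since a peak spans 472 bp in the knockout control list and 226 bp in the wild-type IL-1β list. The farther site, about 3 kb from the body, had 9.80 tags (7.46 to 12.65) without and 15.2 (12.30 to 18.63) with IL-1β in wild-type cells and no peak in the knockout.

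Hmox1 had the highest SIN3A counts of the group. Its body spans 75093618 to 75100593 on chromosome 8. SIN3A across the lower-coordinate end, at chr8:75093532-75093756, had 59.6 tags (51.31 to 68.82) with control siRNA, and the overlapping peak with Pdx1 siRNA had 76.6 (67.73 to 86.38). By this peak Hmox1 ranked 325 of 10143 genes with a SIN3A peak in the first list and 200 of 10706 in the second. A second SIN3A site 9663 bp outside the body had 12.9 and 18.3 tags. p65 with IL-1β was listed 1448 bp outside the body, at chr8:75091964-75092170, with 29.0 tags (24.57 to 33.89) in wild-type cells and 8.47 (6.25 to 11.23) in the knockout.

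PDX1 at Hmox1 was weak and was listed in wild-type cells. The control list held peaks of 6.31, 6.98 and 9.31 tags, and the IL-1β list one of 7.45 tags that overlapped the 6.98-tag peak. The 6.31-tag peak overlapped the outer SIN3A site. No PDX1 peak of the knockout was assigned to Hmox1.

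Cat and Gpx1, whose products both remove hydrogen peroxide, ranked last of the 8 genes by their strongest p65 peak in wild-type IL-1β cells, and each held a site where p65 and PDX1 overlapped. Cat spans 103453904 to 103485153 on the minus strand of chromosome 2. Inside it, at chr2:103467275-103467481, PDX1 had 8.64 tags (6.45 to 11.33) without IL-1β in wild-type cells, 15.4 (12.45 to 18.80) with it and 7.66 (5.63 to 10.18) in knockout control cells. The p65 peak there, with IL-1β in wild-type cells, had 4.67 tags (3.02 to 6.89), and 12.4% of that list was weaker. SIN3A near the Cat start had 15.5 tags (11.40 to 20.50) with control siRNA and 8.86 (6.02 to 12.58) with Pdx1 siRNA. It was the one start site of the group where the second value was the lower, with overlapping intervals. The intervals also overlapped at the strongest SIN3A site of every other gene that had one. The whole SIN3A lists had 13109 peaks with a median of 20.0 tags with control siRNA. With Pdx1 siRNA they had 14653 peaks with a median of 21.7 tags. With Pdx1 siRNA a second peak, centred 438 bp before the Cat start at chr2:103485487-103485695, had 5.15 tags (3.05 to 8.13).

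Gpx1 was the member with a peak in the most lists, 8 of 10. The gene spans 108339080 to 108340342 on the plus strand of chromosome 9. A site about 2 kb past its end, at chr9:108342341-108342888, held all 4 PDX1 lists and p65 with IL-1β in both genotypes. In wild-type cells PDX1 had 10.3 tags (7.90 to 13.21) in the control and 12.5 (9.84 to 15.58) with IL-1β, and the values were 9.29 (7.03 to 12.03) and 9.70 (7.44 to 12.44) in the knockout. The p65 values were 9.90 (7.42 to 12.95) in wild-type cells and 8.83 (6.55 to 11.64) in the knockout. The intervals of these 6 values all overlapped. Of the 7 genes with a p65 peak in both genotypes, Gpx1 had the least difference between its p65 tag counts in the 2 genotypes. These 2 peaks overlapped only at their edges, at chr9:108342341-108342547 in wild-type and chr9:108342500-108342730 in knockout cells. With a reciprocal overlap of 50% or centres within 100 bp, Gpx1 no longer shared a p65 peak between genotypes. Nor did it at 8-fold over input, where the wild-type peak had 7.44-fold. Of the 7, Gpx1 was also the one with PDX1 in the knockout with IL-1β. SIN3A lay inside the gene near the start, with 19 tags (14.47 to 24.51) and 22.0 (17.38 to 27.52). Rhoa lay 1296 bp from the SIN3A site and Usp4 3676 bp from the shared site.

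**Figure D3:**
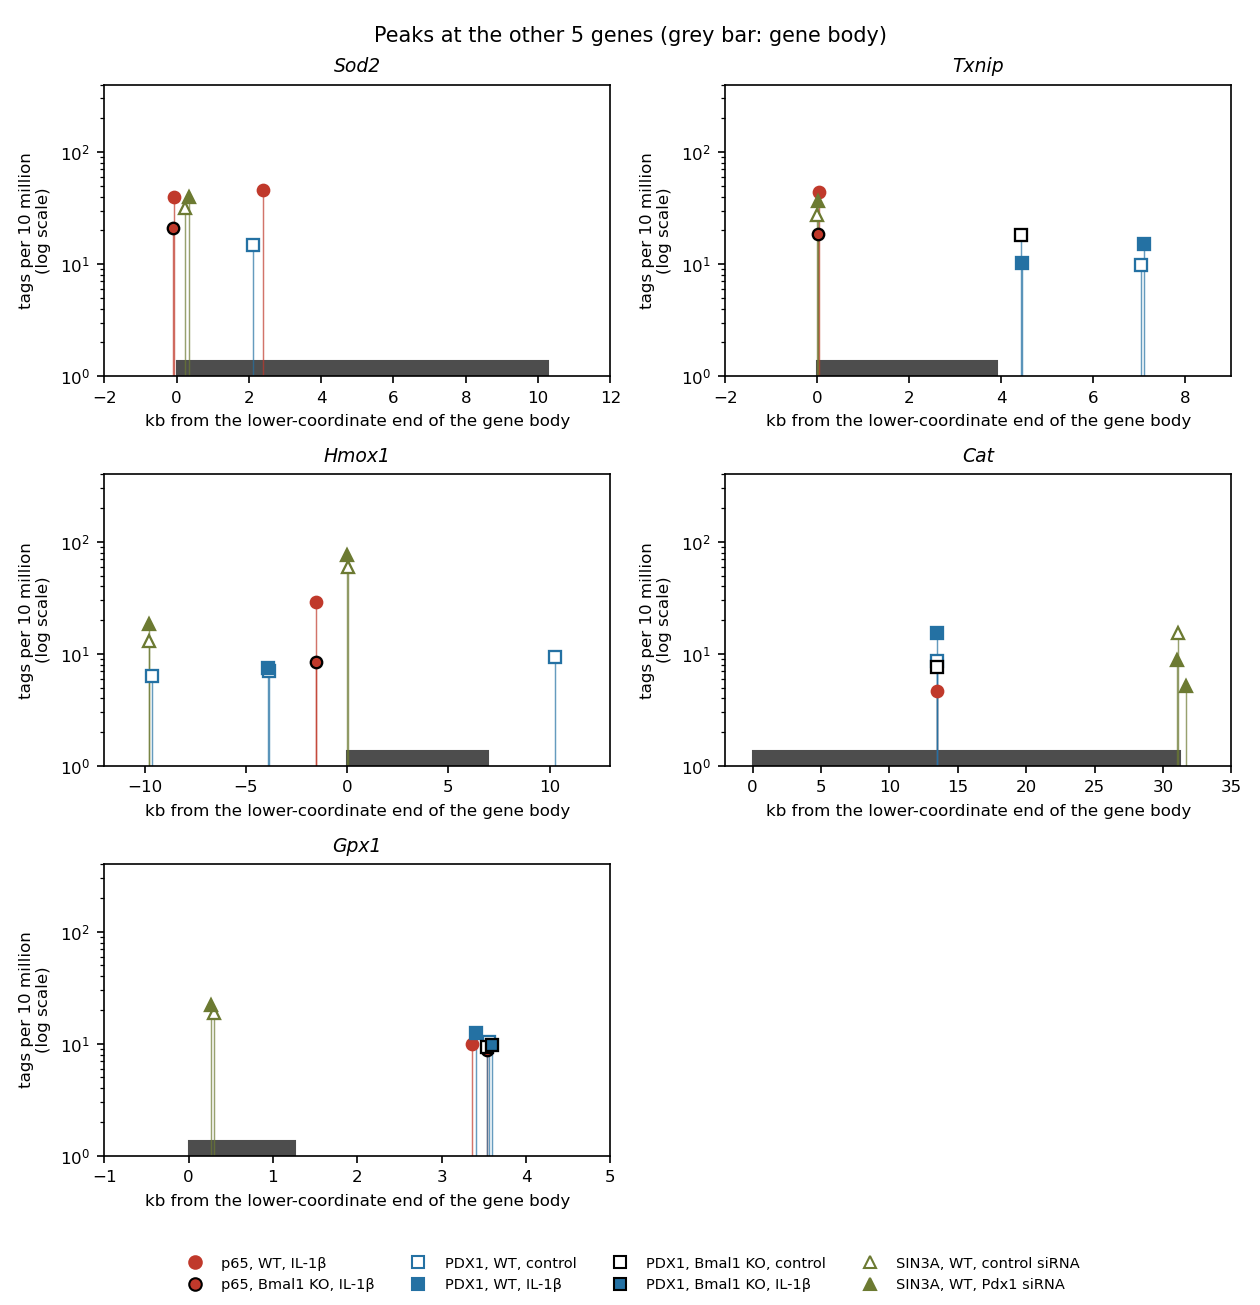
Tag count (log scale) of each peak assigned to Sod2, Txnip, Hmox1, Cat and Gpx1 against the distance in kb from the lower-coordinate end of the gene body (grey bar), with circles for p65, squares for PDX1, triangles for SIN3A, filled symbols for IL-1β or Pdx1 siRNA and black outlines for the Bmal1 knockout. SIN3A symbols stand at the lower end of Sod2, Txnip, Hmox1 and Gpx1 and at the upper end of Cat, which is on the minus strand, and the Sod2 panel shows the internal p65 peak of 46.0 tags without a knockout symbol.

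Across the group, the p65 sites of the knockout were a subset of those in wild-type cells. All 11 knockout p65 peaks with IL-1β overlapped a wild-type peak, as did 79.1% of the whole knockout list, and 11 of the 17 wild-type peaks overlapped a knockout peak, beside 40.7% of the whole wild-type list. At gene level 7 of the 8 shared a p65 peak between genotypes (27.4% of all genes), 1 had a peak in wild-type cells and none in the knockout (16.0% of all genes) and 0 the reverse (2.80% of all genes). At each of the 11 shared sites the knockout tag count was the lower. The whole lists also differed, with medians of 10.3 tags in wild-type and 9.18 in knockout cells. Their highest values were 810.9 and 265.0 tags. The share of all shared peaks with a lower knockout count was not computed. How far the lower counts at these sites go with the difference between the whole lists was not tested. Between control and IL-1β, 1 of the 8 shared a p65 peak in wild-type cells, Nos2 (4.81% of all genes), and 0 in the knockout (0.434% of all genes). Without IL-1β, 0 of the 8 shared one between genotypes (0.585% of all genes).

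**Figure D4:**
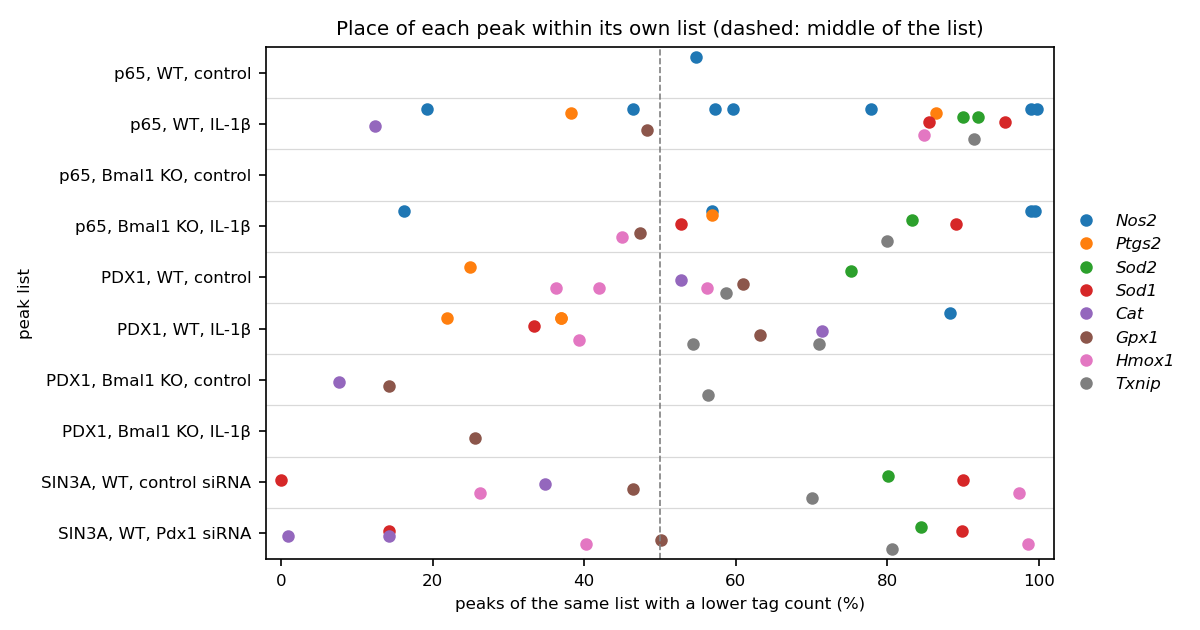
Place of each of the 68 peaks within its own list, as the percent of peaks in that list with a lower tag count (x axis), for the 10 lists (rows), with 1 colour per gene and a dashed line at the middle of the list. The strong Nos2 p65 peaks lie at 98.9% or above in both IL-1β lists, while the PDX1 peaks of wild-type cells lie between 21.9 and 75.2%, apart from the Nos2 peak at 88.3%.

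PDX1 peaks were listed at more of the 8 genes in wild-type cells than in the knockout, and the share of all genes with one was also higher in wild-type cells. In wild-type cells 6 of the 8 had a PDX1 peak without IL-1β (41.6% of all genes) and 7 with it (41.1% of all genes). Ptgs2, Cat, Gpx1, Hmox1 and Txnip shared a PDX1 peak between the conditions (5 of 8, 31.1% of all genes). Nos2 and Sod1 had one with IL-1β and none without (6.72% of all genes), and Sod2 the reverse (7.19% of all genes). The gene assignment bears on Nos2 and Sod2. Peaks nearer to Lyrm9 and Wtap lay within 50 kb of these genes in both conditions, with 4.99 and 7.61 tags near Nos2 and 6.98 and 10.0 near Sod2. In the knockout 3 of the 8 had a PDX1 peak without IL-1β (16.3% of all genes) and 1 with it (16.0% of all genes).

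In wild-type cells 5 of the 8 PDX1 peaks without IL-1β and 5 of the 10 with it were above the middle of their lists. Their highest value was 27.4 tags, at Nos2, and the median was 8.98 without and 8.82 tags with IL-1β in wild-type cells, beside 8.14 and 9.23 for the whole lists. Enrichment over input was between 4.22 and 13.77-fold in the wild-type control list and between 4.48 and 92.53-fold, the latter at Cat, in the wild-type IL-1β list. At a minimum of 8-fold, 2 of the 6 genes without IL-1β (Gpx1 and Hmox1), 4 of the 7 with it (Nos2, Ptgs2, Cat and Txnip) and 0 in the knockout kept a PDX1 peak, and no gene then shared one between the wild-type conditions. By peaks, 2 of 8 and 5 of 10 passed in wild-type cells, beside 59.9% and 50.8% of the whole lists, and 0 of 3 and 0 of 1 in the knockout, beside 30.4% and 34.1%. No PDX1 peak overlapped any of the 6 promoter windows in the 4 lists (2.44, 2.08, 0.372 and 0.492% of all genes). Between genotypes, Cat and Gpx1 shared a PDX1 peak without IL-1β (2 of 8, 15.1% of all genes) and Gpx1 with it (1 of 8, 14.6% of all genes). Within the knockout Gpx1 shared its peak between conditions (1 of 8, 10.7% of all genes).

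SIN3A was listed at the same 6 genes with either siRNA. Sod2, Sod1, Cat, Gpx1, Hmox1 and Txnip had a peak with control siRNA (46.3% of all genes) and with Pdx1 siRNA (48.9% of all genes), and each shared at least 1 overlapping peak (38.2% of all genes). At all 6 the strongest site lay near the gene start or, for Hmox1, whose start was not given, at the lower-coordinate end of the body. Of the SIN3A peaks at these genes, 6 of 8 with control siRNA and 6 of 9 with Pdx1 siRNA touched the body. In the whole lists 84.3% and 83% of peaks touched a gene body. Of the 8 SIN3A peaks with control siRNA 7 overlapped a peak with Pdx1 siRNA, beside 73.4% of the whole list. The promoter windows of Sod1, Cat and Txnip overlapped SIN3A with control siRNA (3 of 6, 27.0% of all genes with a window) and those of Sod1 and Txnip with Pdx1 siRNA (2 of 6, 27.4%).

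Peaks of different factors overlapped at some sites of these genes. After IL-1β, wild-type p65 and PDX1 peaks overlapped at Nos2, Ptgs2, Cat and Gpx1 (4 of 8, 20.0% of all genes), with 4 of the 17 p65 peaks, beside 33.8% of the whole p65 list, and 4 of the 10 PDX1 peaks, beside 27.2% of the whole PDX1 list. In the knockout with IL-1β they overlapped at Gpx1 (1 of 8, 8.68% of all genes). At a minimum of 8-fold over input the wild-type overlap was left at Nos2 and Cat. SIN3A with control siRNA overlapped wild-type p65 with IL-1β at Sod1 and Txnip (2 of 8, 6.75% of all genes) and PDX1 in wild-type control cells at Hmox1 (1 of 8, 3.38% of all genes). SIN3A was mapped in another set of samples, with no IL-1β in its labels.

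Other genes of the 3 pathways were read from lists of 18 nitric oxide, 19 prostaglandin and 37 antioxidant genes. In wild-type IL-1β cells p65 had a peak at 14 of 18 nitric oxide genes, 10 of 19 prostaglandin genes and 22 of 37 antioxidant genes, beside the 45.5% of all genes given above. In the knockout with IL-1β the counts were 12, 7 and 17, beside 32.3%. Without IL-1β they were 2, 1 and 3 in wild-type cells, beside 8.92%, and 0 of each in the knockout. None of the other nitric oxide genes came near Nos2. The highest were Spr and Gch1, which make and start the synthesis of the cofactor tetrahydrobiopterin, with 26.5 and 24.7 tags, and the arginine transporter gene Slc7a1 with 26.3 tags.

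Among prostaglandin genes the highest wild-type p65 values with IL-1β were at Tbxas1, the thromboxane synthase gene, with 55.1 tags, Ptgs1, the constitutive cyclooxygenase gene, with 32.9, and Hpgds, a prostaglandin D synthase gene, with 17.6. In the knockout these had 17.1, 16.6 and 10.2 tags. Among antioxidant genes they were at Mt2, a metallothionein gene, with 109.3 tags, Gpx4, which reduces lipid hydroperoxides, with 98.6, and the quinone reductase gene Nqo1 with 40.7. In the knockout Mt2 had 25.8, Gpx4 28.1 and Nqo1 51.9 tags, so Nqo1 was the one of these 9 genes whose highest knockout value was the larger.

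PDX1 in wild-type cells was listed at 14 nitric oxide genes in the control and 11 with IL-1β, of 18. The counts were 7 and 7 of 19 prostaglandin genes and 17 and 17 of 37 antioxidant genes, beside 41.6% and 41.1% of all genes. Gch1 had 55.3 and 61.4 tags there. In the knockout the counts were 8 and 7, 4 and 4, and 8 and 6, beside 16.3% and 16.0% of all genes. SIN3A had a peak at 28 and 27 of 37 antioxidant genes with control and Pdx1 siRNA, at 11 and 8 of 18 nitric oxide genes and at 6 and 6 of 19 prostaglandin genes, beside 46.3% and 48.9% of all genes.

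**Figure D5:**
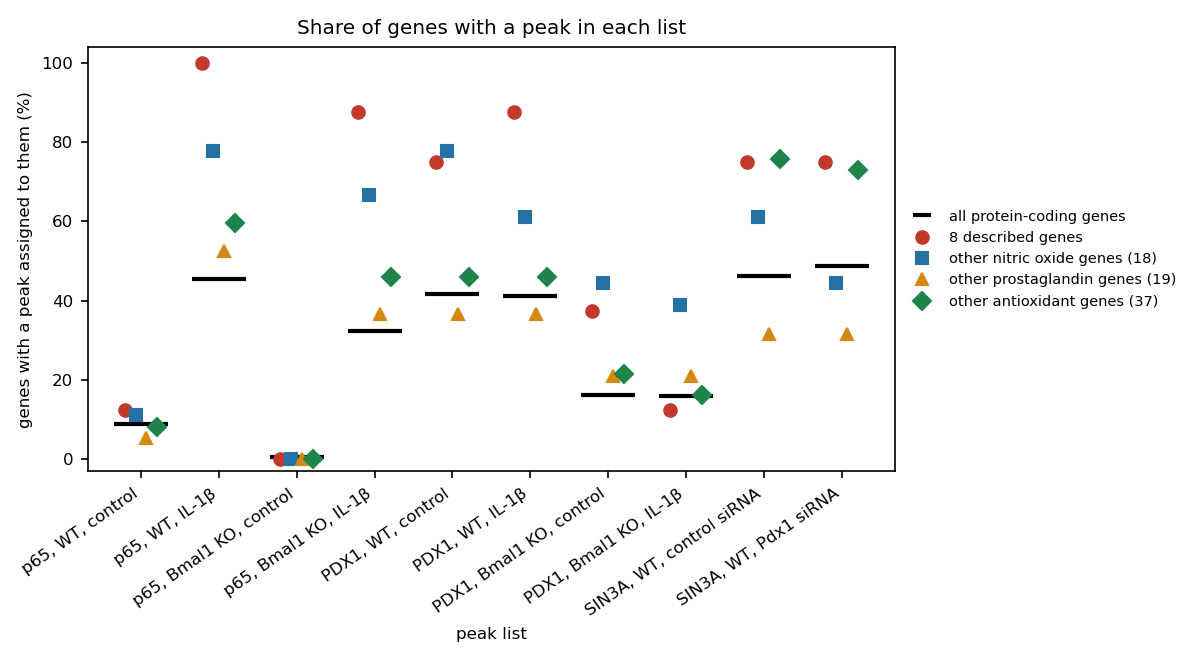
Percent of genes with a peak assigned to them (y axis) in each of the 10 lists (x axis) for all protein-coding genes (black bars), the 8 described genes (circles), and the other nitric oxide (squares), prostaglandin (triangles) and antioxidant genes (diamonds). With IL-1β the p65 share of the 8 genes, 8 of 8 and 7 of 8, stands above the 45.5% and 32.3% of all genes, and for SIN3A the antioxidant genes stand above the background and the prostaglandin genes below it.

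Some genes outside these pathways had nearly the same pattern of highest tag counts over the 10 lists as a member. Likeness was measured as the Euclidean distance between values of log2(highest tag count + 1), with 0 where there was no peak, for members with a peak in at least 5 lists. Sod2 was closest to Cks2 (0.30), 4921524J17Rik (0.43) and Zcchc8 (0.60), and 219 other genes had a peak in the same 5 lists. Sod1 was closest to 2310022B05Rik (0.42), Maml1 (0.48) and Socs2 (0.59), and 246 other genes shared its 5 lists. Txnip was closest to Cnot6 (0.76), Rell1 (0.90) and Myc (0.94), and 241 other genes shared its 7 lists. Gpx1 was closest to Clp1 (0.76), Zfp609 (0.89) and Glce (0.99), and 744 other genes shared its 8 lists. Hmox1 was closest to Akain1 (0.70), Ahcyl2 (0.88) and Slc38a10 (0.90), and 781 other genes shared its 6 lists.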

How the data were processed

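The 34 labelled samples comprise 28 immunoprecipitated samples and 6 inputs. Bowtie2 and HOMER and the build mm10 are named in the submitters' processing notes, without versions or roles. Per the file headers, each of the 10 lists was called with HOMER findPeaks from 1 immunoprecipitated and 1 input tag collection, requiring 4-fold enrichment over input and over the surrounding 10 kb at a false discovery rate of 0.001. Pooling of replicates is not stated. Peak signal is the deposited tag count, scaled by the authors to 10000000 tags per list. The deposited score (HOMER's position-adjusted tag count) served to limit lists to equal length. The deposited fold over input is a ratio after scaling to depth.

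Peaks were assigned in Python 3.11.15 (pandas 2.3.3, scipy 1.17.1) to whichever of 21887 protein-coding gene bodies lay nearest, so exons and introns were not told apart. Tags behind a count were recovered from the total tags, and of counts under 10 a share of 100.0% came within 0.1 of a whole number. Assignment, overlap and motif search were tested on simulated peaks. All 8 genes are named, with all their peaks, and the 3 highest p65 genes of each pathway list. The genes and lists were chosen with earlier results of these data known. Alternatives were 10 and 100 kb, any gene within 50 kb, 8-fold over input, other overlap rules and equal list lengths. The genes closest in pattern to Cat are not reported here.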

Additional observations from a re-analysis of the deposited data

How the results depend on the processing

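No paired analysis was possible because each group has 1 list with no value per replicate, and leaving out a replicate was not possible for the same reason. Of 40 recomputed counts of genes with a peak 35 stayed within 1.5 times, of 65 counts of genes sharing a peak 48 did, and of 40 counts of peaks at the 8 genes 28 did. These tallies include counts that were 0 and stayed 0, such as those of p65 in knockout control cells. They also include smaller losses, such as p65 with IL-1β in wild-type cells, which went from 8 genes to 6 at 8-fold over input. With any gene body within 50 kb, SIN3A peaks went from 8 to 19 and from 9 to 21, and PDX1 peaks in wild-type cells from 8 to 14 and from 10 to 17. Within 10 kb, p65 peaks with IL-1β went from 17 to 11 in wild-type cells and from 11 to 6 in the knockout. Within 10 kb, p65 in wild-type control cells had a peak at 0 of the 8 genes, the Nos2 peak being farther away. At 8-fold over input, PDX1 counts in wild-type cells were 2 in the control and 4 with IL-1β, and 0 and 0 in the knockout, and counts of genes sharing a peak were 2 for p65 and PDX1 with IL-1β in wild-type cells and 0 in the knockout, 0 for each of the 4 PDX1 comparisons and 0 for SIN3A with p65 and with PDX1. A reciprocal overlap of 50% gave 0 for PDX1 between genotypes with IL-1β and 0 for SIN3A with PDX1. Without IL-1β it also gave 0 for PDX1 between genotypes, but peaks of 207 and 472 bp cannot reach it, so that 0 says nothing about the sites. Centres within 100 bp gave 0 for PDX1 between genotypes with IL-1β and 0 for SIN3A with PDX1. Lists of equal length gave 0 for PDX1 between genotypes in both conditions, 0 for p65 with PDX1 in the knockout and 0 for SIN3A with PDX1. Of 160 highest tag counts 12 moved beyond their interval. Of these, 2 were Nos2 within 10 kb, with 21.7 tags in wild-type cells and 10.4 in the knockout. A gene left without any peak in a list had no value to compare and is not among the 160. Sod1 was one such gene, for p65 with IL-1β within 10 kb in both genotypes. Depth limits the weak peaks: the p65 peak at Cat rests on 25 tags.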
